A study of Homo sapiens with 6 samples.

Results

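The deposited table of FPKM (fragments scaled to gene length and to the mapped fragments of the library) listed 15897 genes, and 62 of them (0.390%) had an FPKM of at least 10 in each of the 3 shSETD2 libraries and under 0.1 in each of the 3 control libraries. These 62 genes, strongly expressed in the libraries labelled shSETD2 and at or near 0 in the controls, are described here. They were selected on the contrast between the groups, so their levels and their differences between the groups are a description and carry no test. Among the 3421 genes at 10 or more in each shSETD2 library, 1.81% were members, and among the 744 genes under 0.1 in each control library, 8.33% were. The reverse rule, 10 or more in each control library and under 0.1 in each shSETD2 library, was met by 43 genes.

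RNA-seq was done on cells labelled H1650, an established human lung adenocarcinoma line, to find genes that change when the histone methyltransferase SETD2 is depleted. The 3 control libraries carry the genotype label wild type, and the 3 shSETD2 libraries come from cells with short hairpin RNAs against SETD2, which the methods describe as delivered by lentivirus from the PLKO.1-TRC vector into stable lines. The methods describe several hairpin constructs, and neither they nor the labels say whether the library numbers stand for constructs or for repeats, nor whether the cultures were separate. P-values therefore measure the spread between these libraries, which may be technical.

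SETD2 is the enzyme that trimethylates lysine 36 of histone H3 over the bodies of transcribed genes. Many of the members described here, though not all, belong to classes of genes that are expressed in particular states or kinds of cells. Inflammatory cytokines are induced by transcription factors of the NF-κB and AP-1 families, clustered histone genes are transcribed during DNA replication, and keratins, tetraspan proteins and lineage transcription factors mark particular kinds of epithelium.

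Before the members, the labels were checked. The FPKM of SETD2 was 18.0, 10.2 and 17.6 in the controls, in order of their number, and 8.97, 8.09 and 12.2 with shSETD2. The groups overlapped, and the difference of -0.58 on the scale of log2(FPKM + 1) did not pass the threshold (limma, Benjamini-Hochberg adjusted p = 0.0641). Of 13 markers of lung epithelium, 2 were listed (NKX2-1 and FOXA1). Both reached a mean of 1 in the controls, and 0 did in the shSETD2 libraries. NKX2-1, a defining lung factor, was between 1.44 and 1.80 in the controls and listed at 0 in every shSETD2 library. Of 10 markers of renal epithelium, 7 were listed, and their summed FPKM was 3.45 to 4.14 in the controls and 145 to 159 in the shSETD2 libraries. PAX8, HAVCR1 and PDZK1IP1 are among the members, whereas EMX2 was at 1.67 to 2.55 in the controls and listed at 0 in the shSETD2 libraries. Of 8 genes typical of embryonic kidney lines, 7 were listed, with sums of 149 to 154 in the controls and 17.9 to 19.0 in the shSETD2 libraries, where NEFM, NEFL, INA and LIN28B were listed at 0. SOX2 (control mean 3.26, shSETD2 mean 0.0961) and IGF2BP1 (54.2 and 11.4) were also lower there. HOXC9 went the other way, with means of 5.37 in the controls and 6.85 in the shSETD2 libraries. Of 12 general epithelial markers, 10 were listed, and their sums were 16.7 to 17.9 in the controls and 406 to 459 in the shSETD2 libraries. KRT18, KRT8 and the member KRT7 made up most of the latter sums. The defining CDH1 was between 0.860 and 1.52 in the controls and at most 0.0140 in the shSETD2 libraries, and ESRP2, EPCAM and CLDN7 were also lower in each shSETD2 library than in any control. By contrast, ELF3 (4.06 to 4.34 in the shSETD2 libraries), ESRP1 (0.639 to 0.962) and CLDN4 (0.121 to 0.208) were higher there than in any control. Sums over markers of immune cells (2 of 6 listed) were 1.33 to 1.62 in the controls and 1.91 to 2.24 in the shSETD2 libraries. For endothelium and fibroblasts (2 of 7 listed) they were 3.29 to 3.70 and 0.252 to 0.322. The part that differences between cell populations play in the results was not tested. In RNA from whole cultures, fewer cells that express a gene and less RNA per cell cannot be told apart.

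Across the whole table, 14068 genes were tested with limma and at an adjusted p under 0.05 the shSETD2 libraries were called higher for 3774 of them (26.8%) and lower for 7283 (51.8%), with a median log2 fold change of -0.29. After median ratio scaling the split was 38.2% higher and 37.8% lower. All 62 members were among the genes called higher, beside the 26.8% of all genes tested, which the rule that chose them fixes.

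Between the groups the members formed a gap of at least 100-fold by construction, and most lay further apart. Of the 62, 26 were listed at 0 in all 3 control libraries, 13 in 2, 15 in 1, and 8 were above 0 in each. The highest control value was 0.0948, that of KCNN4. In the shSETD2 libraries, the mean was over 100 for 8 members, over 50 for 17 and over 20 for 36, and the median of the means was 27.9. The members' FPKM summed to 3226, 3153 and 3286 in shSETD2 libraries 1 to 3, which was 1.47%, 1.44% and 1.46% of the sum over all genes, against sums of 0.900, 0.956 and 0.958 in the control libraries. Histone genes made up 40.1% of the members' sum in the shSETD2 libraries.

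**Figure D1:**
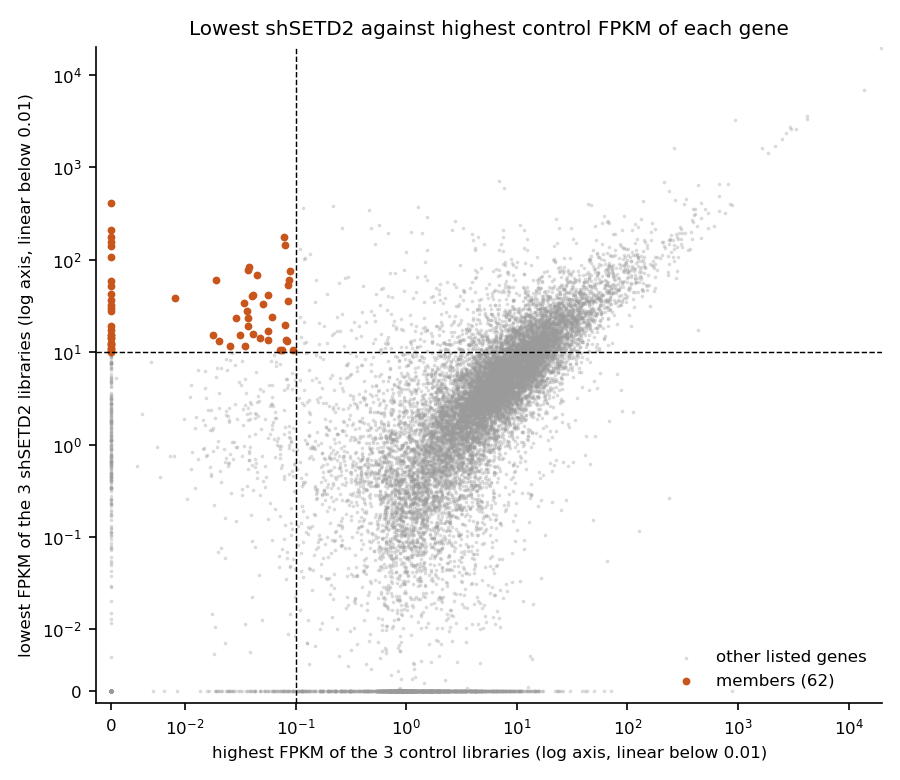
The lowest FPKM of the 3 shSETD2 libraries is plotted against the highest FPKM of the 3 control libraries for each listed gene, on log axes that are linear below 0.01. Dashed lines mark 10 and 0.1, and the 62 members (orange) fill the upper left, with 26 of them at 0 on the control axis.

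Histone genes were the most abundant group, with 8 members. Histones package DNA, and H1 proteins bind the linker between nucleosomes. HIST1H1B, which encodes a linker histone, was at 437, 416 and 440 in the shSETD2 libraries and listed at 0 in every control, and it was the highest of all members. HIST1H3I, a gene for histone H3, reached 248, 212 and 245 and was also listed at 0 in the controls. The H2B gene HIST1H2BI was at 177, 186 and 185, against 0, 0.0785 and 0.0387 in the controls. The H4 gene HIST1H4L was at 157, 158 and 166 and listed at 0 in the controls. All 3 shSETD2 libraries lay close together for these genes. HIST1H2BM, another H2B gene, was at 145, 139 and 154 and listed at 0 in the controls. HIST1H2BH (mean of 80.6), HIST1H3G (37.4) and H2AFB2 (18.4), which encodes a short H2A variant, were lower. The 8 members were 13.6% of the 59 histone genes listed, and of 48 others tested, 16 (33.3%) were higher and 27 lower, with a median log2 fold change of -0.36, near the 26.8%, 51.8% and -0.29 over all genes tested. After median ratio scaling it was 17 and 18. The median stayed below 0 under each of 3 other scalings, at between -0.45 and -0.02. Histone genes are similar in sequence and some overlap, so that reads could be divided between them, which was not tested. HIST1H2AM and HIST1H3J overlap on the same strand near HIST1H4L, and neither is a member. HIST1H2AM was at 293 and 313 in shSETD2 libraries 1 and 3 but at 17.2 in library 2, and HIST1H3J was at 13.2 and 11.97 in libraries 1 and 3 but at 142 in library 2. Levels of single histone genes are therefore given as uncertain. H2AFB2 likewise has a close copy, H2AFB3, which was at 14.6, 13.003 and 14.4 in the shSETD2 libraries and at 0, 0 and 0.124 in the controls, just outside the rule.

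**Figure D2:**
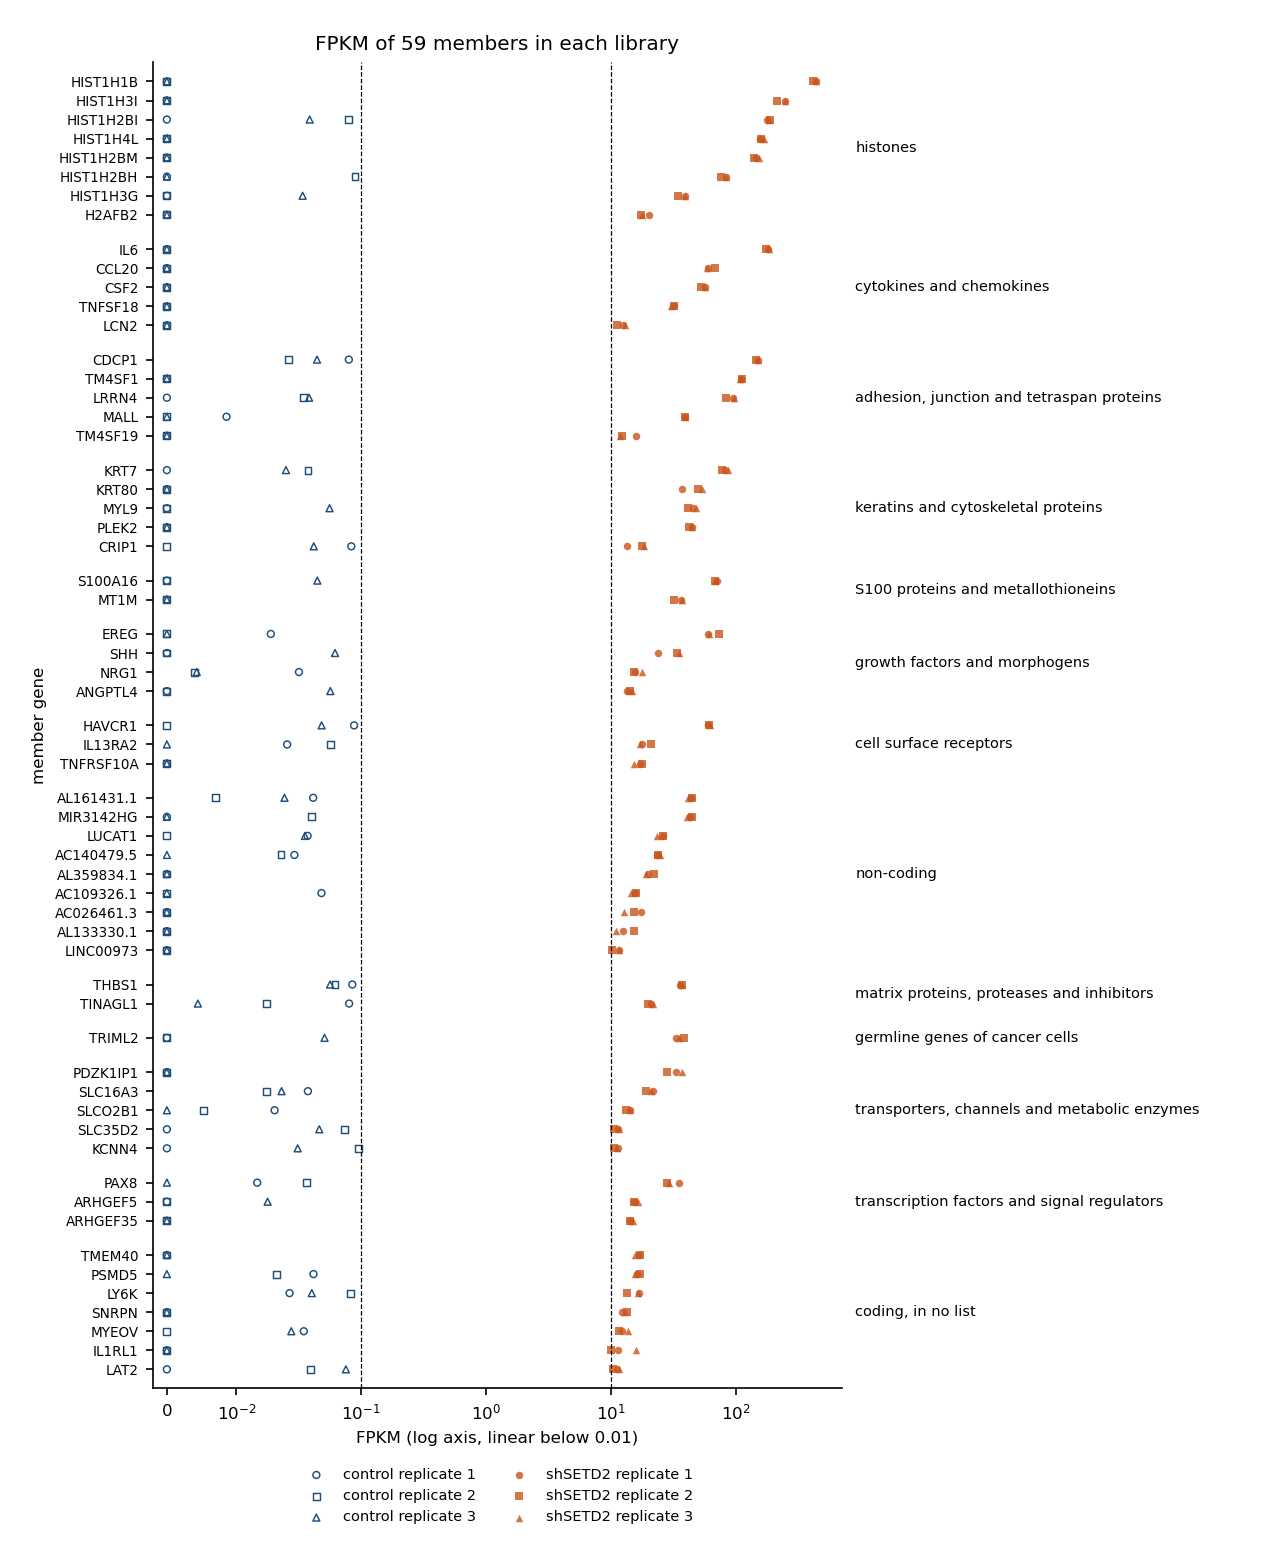
FPKM of 59 of the 62 members in each library, on a log axis that is linear below 0.01, grouped by function and ordered by mean. Open blue symbols are the control libraries and filled orange symbols the shSETD2 libraries, and dashed lines mark 0.1 and 10. Within most genes the 3 shSETD2 symbols lie on top of each other.

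The list of cytokines and chemokines, in which LCN2 was counted, contributed 5 members, and each of them was listed at 0 in all 3 control libraries. IL6, a cytokine of the acute phase response, was at 179, 174 and 185 in the shSETD2 libraries. CCL20, a chemokine that attracts cells with the receptor CCR6, was at 59.4, 67.6 and 58.3. CSF2, which encodes the growth factor GM-CSF, was at 56.2, 52.1 and 56.4. These genes varied little among the shSETD2 libraries. TNFSF18, a ligand of the TNF family, was at 31.7, 32.2 and 30.2, and LCN2, an iron-carrying protein of innate defence, had a mean of 12.2. The 5 members were 15.6% of 32 listed cytokines and chemokines. Of the 22 others tested, 17 (77.3%) were higher and 5 lower, beside 26.8% and 51.8% over all genes tested.

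IL6, CCL20, CSF2, LCN2 and the non-coding MIR3142HG also stood in a list of 36 listed genes that NF-κB is known to induce. Of the 30 others of that list that were tested, 29 were higher and 1, TRAF1, was lower, with a median log2 fold change of 3.07, beside 26.8% and -0.29 over all genes tested. MIR3142HG, the host transcript of miR-146a, was at 42.9, 44.4 and 40.5 in the shSETD2 libraries and at 0, 0.0402 and 0 in the controls. The mature microRNA was not measured in these libraries. Its sequence is shown because the seed (bases 2 to 8, in capitals) is what pairs with target transcripts, and because miR-146a is known to dampen NF-κB signalling.
hsa-miR-146a-5p: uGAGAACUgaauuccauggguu

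The stretch of 250 bases before the start of each member was examined for short motifs, which the rule did not use. The motifs were GGGA and TTCC parted by any 2 bases for NF-κB, TGANTCA for AP-1 and TATAAA for the TATA box, read on both strands. RefSeq promoters (GRCh38.p14) were at hand for 40 of the 62 members, too few for a share over the members, and they are shown here only for single genes. In 4 of them the NF-κB motif was found. Over the whole RefSeq table of 27305 promoters, 1.42% held that motif, 6.60% the AP-1 motif and 11.1% the TATA motif. A match describes these letters and is not evidence of binding. The promoters of IL6 (chr7:22726950-22727199, plus strand), MIR3142HG (chr5:160468001-160468250, plus strand), LCN2 (chr9:128149203-128149452, plus strand) and TM4SF1 (chr3:149377650-149377899, minus strand) hold the NF-κB motif. They are shown because 3 of these genes are in the NF-κB list. CSF2 and CCL20, which are also members in that list, held no NF-κB match in their RefSeq promoters. The promoter of LUCAT1 (chr5:91314403-91314652, minus strand) holds the AP-1 motif and that of CCL20 (chr2:227813592-227813841, plus strand) the TATA motif. Capitals mark the matches, and each sequence ends at the base before the start.
IL6: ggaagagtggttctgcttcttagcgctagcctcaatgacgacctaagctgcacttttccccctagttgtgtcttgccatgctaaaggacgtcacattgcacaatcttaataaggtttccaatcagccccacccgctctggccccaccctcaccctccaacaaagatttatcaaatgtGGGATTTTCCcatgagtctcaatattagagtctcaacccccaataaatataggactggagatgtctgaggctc
MIR3142HG: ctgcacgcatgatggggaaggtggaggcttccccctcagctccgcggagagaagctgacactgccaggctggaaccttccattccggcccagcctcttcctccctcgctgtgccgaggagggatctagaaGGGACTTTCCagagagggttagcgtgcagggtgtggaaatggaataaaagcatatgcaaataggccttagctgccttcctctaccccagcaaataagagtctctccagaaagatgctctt
LCN2: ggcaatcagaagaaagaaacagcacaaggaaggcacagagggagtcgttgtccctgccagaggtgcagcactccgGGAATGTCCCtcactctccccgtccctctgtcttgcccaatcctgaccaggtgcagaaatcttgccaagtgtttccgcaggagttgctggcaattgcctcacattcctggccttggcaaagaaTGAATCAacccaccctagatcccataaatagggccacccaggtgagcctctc
TM4SF1: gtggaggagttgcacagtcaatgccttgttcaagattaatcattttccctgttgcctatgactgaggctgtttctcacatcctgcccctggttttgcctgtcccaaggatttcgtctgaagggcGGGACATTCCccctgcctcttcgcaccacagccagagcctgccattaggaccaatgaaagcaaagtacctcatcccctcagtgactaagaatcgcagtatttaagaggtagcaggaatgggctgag
LUCAT1: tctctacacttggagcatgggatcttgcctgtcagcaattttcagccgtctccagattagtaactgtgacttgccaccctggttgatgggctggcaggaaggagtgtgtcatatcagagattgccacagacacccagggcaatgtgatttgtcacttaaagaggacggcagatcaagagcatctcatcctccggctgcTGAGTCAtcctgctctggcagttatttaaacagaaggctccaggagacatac
CCL20: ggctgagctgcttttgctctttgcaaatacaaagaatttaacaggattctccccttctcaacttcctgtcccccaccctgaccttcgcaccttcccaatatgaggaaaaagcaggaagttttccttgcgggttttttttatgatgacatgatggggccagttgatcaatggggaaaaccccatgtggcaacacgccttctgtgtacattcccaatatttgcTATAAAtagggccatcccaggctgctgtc
In IL6 the NF-κB match lay 73 to 64 bases before the start, in MIR3142HG 120 to 111, in TM4SF1 126 to 117 and in LCN2 175 to 166. LCN2 also held an AP-1 match 52 to 46 bases before its start, the same distance as in LUCAT1.

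Shares over all members could be given from GRCh37, in which each listed gene has a window of 250 bases before its listed start. There, 7 of 62 members (11.3%) held the AP-1 motif, beside 4.67% of all listed genes, and 0 of the 43 genes of the reverse rule did. The 7 were LUCAT1, LINC00973, AL359834.1, SLCO2B1, KCNN4, TM4SF19 and LY6K. The NF-κB motif was in 2 members (3.23%, against 1.14%), MIR3142HG and PDZK1IP1, and the TATA motif in 6 (9.68%, against 7.83%). In the windows before the listed starts of IL6, LCN2 and TM4SF1 the NF-κB motif was not found, unlike in their RefSeq promoters, so that motif shares depend on which start is used.

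The members' windows were poor in CpG. The ratio of observed to expected CpG had a median of 0.445 over the members, against 0.724 over all listed genes, 0.793 over the 3421 genes at 10 or more in each shSETD2 library and 0.743 over the genes of the reverse rule. It was under 0.4 in 27 members (43.5%), in 23.9% of all listed genes and in 13.6% of the 3421. Every such member was outside the histone group, where the ratio was under 0.4 in 0 of 8, and among the other 54 members it was under 0.4 in 27. The median GC content was 54.0% in the members and 60.4% in all listed genes. LCN2 (0.0458) and IL13RA2, with no CpG at all, had the lowest ratios. These values are a description of sequence with no test.

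**Figure D3:**
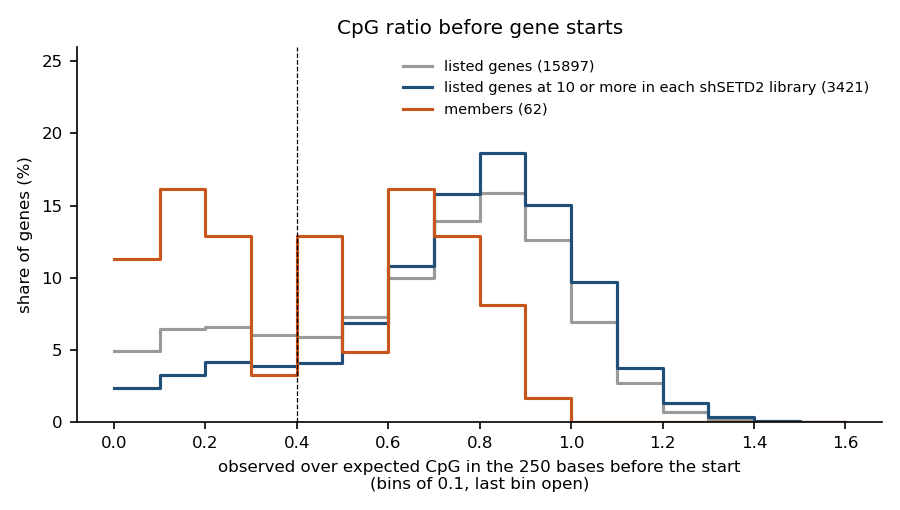
Share of genes in each bin of 0.1 of the ratio of observed to expected CpG, in the 250 bases before the listed start in GRCh37, for the 62 members (orange), the 3421 genes at 10 or more in each shSETD2 library (blue) and all 15897 listed genes (grey). The dashed line marks 0.4, below which 43.5%, 13.6% and 23.9% of these sets lie.

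Adhesion, junction and tetraspan proteins gave 5 members. CDCP1, a transmembrane protein that Src kinases phosphorylate, was at 149, 144 and 150 in the shSETD2 libraries and at 0.0796, 0.0261 and 0.0443 in the controls. TM4SF1, a tetraspan-like surface protein of many carcinomas, was at 110, 111 and 108 and listed at 0 in the controls. LRRN4, a leucine-rich repeat membrane protein, was at 94.5, 84.0 and 96.5, against 0, 0.0344 and 0.0383. The 3 genes were among the 10 highest members. MALL, a raft-associated protein related to MAL, was at 39.0, 38.9 and 39.4, the smallest spread of all members (coefficient of variation 0.710%), against 0.00859, 0 and 0. TM4SF19 had a mean of 13.3. Of the 46 others of the list that were tested, 36 (78.3%) were higher and 4 lower, beside 26.8% and 51.8% over all genes tested.

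Keratins and cytoskeletal proteins also gave 5 members. KRT7, a keratin of simple epithelium, was at 81.6, 77.0 and 87.1 in the shSETD2 libraries and at 0, 0.0375 and 0.0250 in the controls. KRT80 was at 36.95, 49.7 and 53.4, lower in library 1 than in the others, and listed at 0 in the controls. The myosin regulatory light chain MYL9 was at 45.5, 41.0 and 47.5, against 0, 0 and 0.0558. PLEK2, a pleckstrin-family protein of the cell cortex, was at 44.4, 42.2 and 44.2 and listed at 0 in the controls, and the LIM protein CRIP1 had a mean of 16.5. Among the 44 others tested, 38 (86.4%) were higher and 5 lower, beside 26.8% and 51.8% over all genes tested. KRT18 and KRT8, the keratins that simple epithelia carry with KRT7, were not members: KRT18 was at 9.11 to 10.8 in the controls and 236 to 266 in the shSETD2 libraries, and KRT8 at 2.58 to 3.07 and 87.2 to 99.96.

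Growth factors and morphogens were 4 members. EREG, a ligand of the EGF receptor, was at 59.9, 72.9 and 60.9 in the shSETD2 libraries and at 0.0189, 0 and 0 in the controls. The morphogen SHH was at 23.9, 34.0 and 34.8, against 0, 0 and 0.0617. NRG1, a ligand of ERBB receptors, was at 15.6, 15.2 and 17.7, against 0.0318, 0.00403 and 0.00430. ANGPTL4, which inhibits lipoprotein lipase, was at 13.4, 14.1 and 14.7, against 0, 0 and 0.0566. SHH was the only 1 of the 4 with a coefficient of variation over 15%. Of the 41 others tested, 25 (61.0%) were higher and 13 lower, beside 26.8% and 51.8% over all genes tested.

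Surface receptors were 3 members. HAVCR1, also known as kidney injury molecule 1, was at 59.6, 60.8 and 61.5 in the shSETD2 libraries and at 0.0877, 0 and 0.0482 in the controls. IL13RA2, a decoy receptor for IL-13, was at 17.8, 20.7 and 17.0, against 0.0255, 0.0569 and 0. The death receptor TNFRSF10A was at 16.9, 17.8 and 15.4 and listed at 0 in the controls. Among 57 other receptors tested, 34 (59.6%) were higher and 16 lower, beside 26.8% and 51.8% over all genes tested.

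Matrix proteins, proteases and their inhibitors gave 3 members, all above 0 in each control library. THBS1, a matrix glycoprotein that limits angiogenesis, was at 35.5, 37.3 and 37.1 in the shSETD2 libraries and at 0.0849, 0.0617 and 0.0564 in the controls. TINAGL1 was at 21.1, 19.9 and 21.8, against 0.0800, 0.0174 and 0.00447. Of the 45 others of the list that were tested, 25 (55.6%) were higher and 14 lower, beside 26.8% and 51.8% over all genes tested.

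Transcription factors and signal regulators gave 4 members. PAX8, a factor of the developing kidney and thyroid, was at 35.2, 28.1 and 29.2 in the shSETD2 libraries and at 0.0147, 0.0368 and 0 in the controls. ARHGEF5, an exchange factor of small GTPases, was at 15.2, 15.2 and 16.6, and its near-identical copy ARHGEF35 was at 14.3, 14.2 and 15.1. The pair share sequence, so reads of either can be counted for the other. Of the 62 other transcription factors and signal regulators tested, 44 (71.0%) were higher and 15 lower, beside 26.8% and 51.8% over all genes tested.

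Transporters and channels were 5 members. PDZK1IP1, a small membrane protein of renal tubules, was at 33.3, 28.2 and 36.7 in the shSETD2 libraries and listed at 0 in the controls. SLC16A3, which exports lactate, was at 21.8, 19.1 and 21.0, against 0.0374, 0.0173 and 0.0231. SLCO2B1, an organic anion transporter, was at 14.1, 13.1 and 14.1, against 0.0203, 0.00521 and 0. SLC35D2, a carrier of nucleotide sugars, was at 11.5, 10.5 and 11.5, and the calcium-activated potassium channel KCNN4 had the lowest mean of all members (11.1). Of the 37 others tested, 26 (70.3%) were higher and 10 lower, beside 26.8% and 51.8% over all genes tested.

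The calcium-binding S100A16 was at 70.5, 68.6 and 67.6 in the shSETD2 libraries and at 0, 0 and 0.0446 in the controls, and the metallothionein MT1M at 36.1, 32.0 and 36.7 and listed at 0 in the controls. All 10 others of their list that were tested were higher, beside 26.8% of all genes tested, with a median log2 fold change of 2.62. Only genes with a mean FPKM of 0.5 or more were tested. MT1E, S100A6, S100A2 and S100A3 were among those that reached it only through the shSETD2 libraries. Their relatives S100A4 (control mean 0.544, shSETD2 mean 0.448) and S100A14 (0.105 and 0.235) were not tested. TRIML2 was the only member of the list of genes of germline and cancer cells, at 33.2, 38.1 and 35.02. Over all lists together, 281 of 427 genes tested that are not members (65.8%) were higher and 113 lower, beside 26.8% and 51.8% over all genes. The lists were written with results of these data known, so that these counts are not independent evidence of a direction.

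The remaining 17 members stood in no functional list of their own. Of these, 8 are coding, with means of 11.1 to 16.5, among them TMEM40, PSMD5, LY6K, SNRPN, MYEOV, IL1RL1 and LAT2. PSMD5 assists assembly of the proteasome in most cell types, and was at 15.999, 17.1 and 15.6 against 0.0415, 0.0209 and 0. SNRPN, an imprinted gene for a splicing factor, was at 12.3, 13.4 and 12.9 and listed at 0 in the controls. IL1RL1, the receptor of IL-33, had the largest spread of all members, with 11.3, 10.01 and 15.7 (coefficient of variation 24.3%). LY6K and MYEOV are surface and cancer-associated genes, and LAT2 is an adaptor of immune receptors.

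The other 9 are non-coding, with means of 11.1 to 43.1. They are AL161431.1 (43.8, 44.3 and 41.1 in the shSETD2 libraries), MIR3142HG, LUCAT1 (25.9, 25.96 and 23.3), AC140479.5 (23.3, 23.7 and 24.7), AL359834.1, AC109326.1, AC026461.3, AL133330.1 and LINC00973. AL133330.1 lies inside CD44 on the same strand, and CD44 itself was at 104, 107 and 103 in the shSETD2 libraries, so reads of the host gene can be counted for it. AC140479.5 contains MALLP1, a pseudogene copy of the member MALL. In all, 53 members (85.5%) were coding, beside 85.7% of all listed genes. The members were shorter, with a median gene length of 12.2 kb against 26.5 kb for all listed genes and 26.1 kb for those at 10 or more in each shSETD2 library.

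Among the 3 shSETD2 libraries, the members had a median coefficient of variation of 5.12%, beside 5.13% over 3702 genes with a mean of at least 10, and 7 members were above 15%, as were 9.18% of these genes. Library 3 was the highest for 30 members (48.4%, beside 33.8% of these genes) and library 2 the lowest for 33 (53.2%, beside 44.1%).

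Several genes fell close to the limits of the rule. Just inside the lower limit were IL1RL1 (10.01 in library 2), LINC00973 (10.2), LAT2 (10.5), SLC35D2 (10.5) and KCNN4 (10.6). Just outside it, with a lowest shSETD2 value under 10, were CLEC4E (9.88), AC002401.4 (9.76), PTGR1 (9.45), MB21D1 (9.30) and AC021218.1 (9.27). At the upper limit for the controls, KCNN4 (0.0948), HIST1H2BH (0.0892), HAVCR1 (0.0877) and THBS1 (0.0849) were just inside. ICAM1 (0.109), SPRY4 (0.110), NNMT (0.112), CXCL1 (0.118) and CD44 (0.118) were just outside. Mean levels in the shSETD2 libraries of those outside ran from 15.2 (NNMT) and 25.4 (SPRY4) to 134 (ICAM1, an adhesion receptor) and 365 (CXCL1, a chemokine).

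The members lay on 19 of the 23 chromosomes compared, with none on chromosomes 10, 18, 21 and 22. Chromosome 6 held 7 (11.3% of members, beside 5.15% of listed genes), chromosomes 3 and 7 held 6 each, and chromosomes 1 and 2 held 5 each. Chromosome 19, with 7.05% of the listed genes, held 2. All 7 members of chromosome 6 are histone genes.

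**Figure D4:**
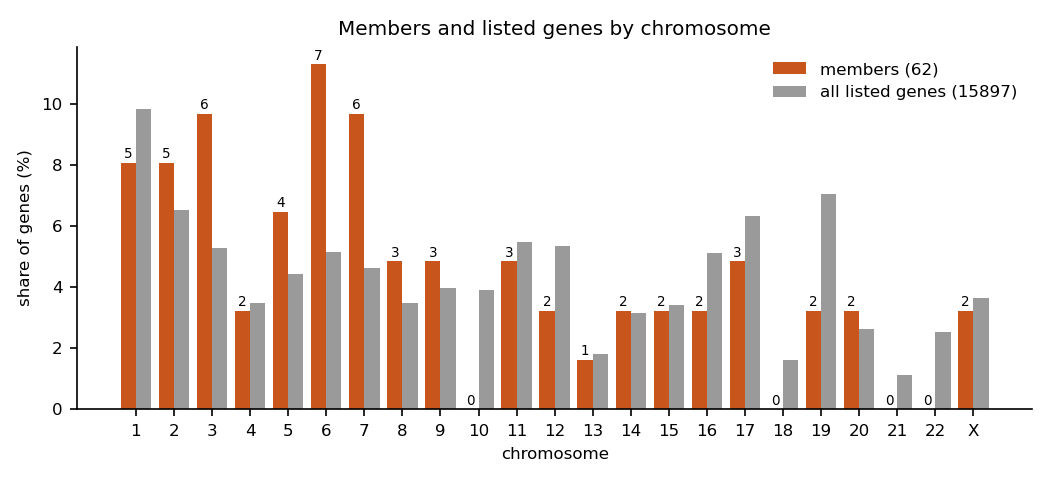
Share of the 62 members (orange) and of all 15897 listed genes (grey) on each chromosome, in percent, with the number of members above each orange bar. Chromosome 6 holds the most members, 7, and chromosomes 10, 18, 21 and 22 hold 0.

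Of the 62 members, 15 (24.2%) started within 1 Mb of another, in 6 clusters (positions in hg19, from the deposited table). For the 43 genes of the reverse rule it was 8 (18.6%). The histone members made 2 clusters on chromosome 6. HIST1H2BH, HIST1H3G and HIST1H2BI lie at chr6:26251879-26273584, and HIST1H2BM, HIST1H1B, HIST1H3I and HIST1H4L at chr6:27782822-27841288. KRT80 and KRT7 lie side by side in the type II keratin cluster at chr12:52562780-52645970, with starts 40.5 kb apart. AC026461.3 and MT1M lie in the metallothionein cluster at chr16:56643413-56667898. The other clusters are MALL with AC140479.5 at chr2:110841447-111043433 and ARHGEF35 with ARHGEF5 at chr7:143883176-144077725, and in both the paired loci hold copies of the same sequence. Without the histone genes, 8 of 54 members were within 1 Mb of another. The remaining 47 members lay alone, such as IL6 at chr7:22765503-22771621 and CDCP1 at chr3:45123770-45187914.

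Genes near the members were then examined. Of 150 listed genes that are not members and start within 100 kb of a member, 138 were tested. In the shSETD2 libraries 68 of them (49.3%) were higher and 48 (34.8%) lower, beside 26.8% and 51.8% over all genes tested, with a median log2 fold change of 0.32. Within 10 kb, 11 of 17 were higher and 4 lower. Some of those called higher overlap a member on the same strand, so reads of the member can be counted for them, which was not tested. Examples are AC123595.2 inside LUCAT1, TM4SF19-TCTEX1D2 over TM4SF19 and IL18R1 over IL1RL1. From 10 to 50 kb, 23 of 59 were higher and 24 lower, and from 50 to 100 kb, 34 of 62 were higher and 20 lower. Among neighbours within 500 kb, 35.8% were higher and 43.0% lower. Near genes that met the reverse rule, 7 of 69 tested were higher and 51 lower. Some neighbours stand in the functional lists. Without these and without neighbours of histone members, 41 of 93 (44.1%) were higher and 35 (37.6%) lower, and relatives of a member that are in no list, such as IL18R1 near IL1RL1, remained among them. Of the 44 members with a tested neighbour, 19 had neighbours called higher and none lower, 7 the opposite, 17 both and 1 neither. Tested neighbours per member ran from 1 to 14, and no such split was made for other genes, so it is a description only. No test of the neighbours as a set was made.

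**Figure D5:**
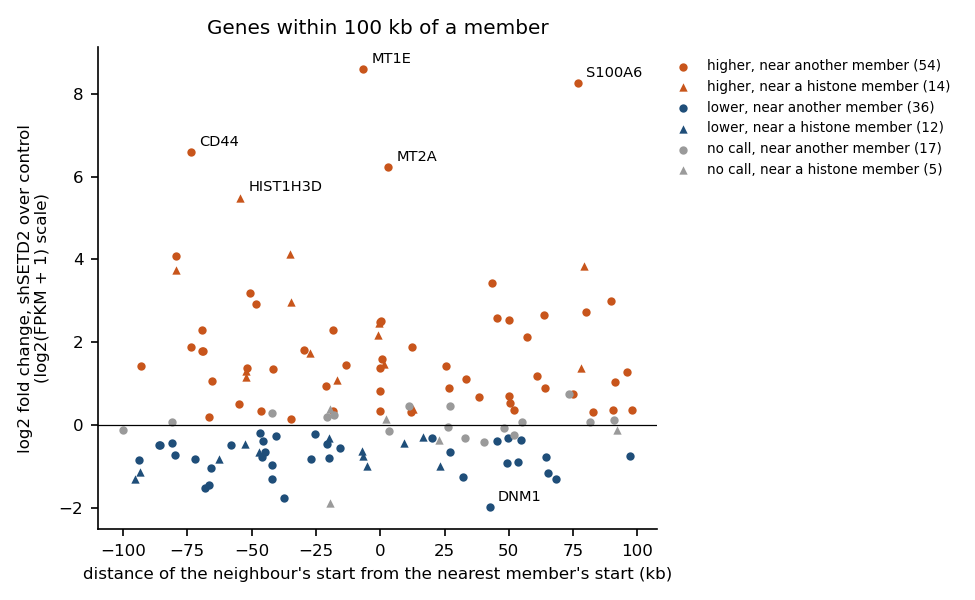
Log2 fold change on the log2(FPKM + 1) scale of each of the 138 tested genes within 100 kb of a member, against the distance of its start from the nearest member's start in kb (negative: upstream of the member). Colours give the limma call at an adjusted p under 0.05 and triangles mark neighbours of histone members. Of all points, 68 are called higher and 48 lower.

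The 5 largest differences among the neighbours called higher were those of MT1E, S100A6, CD44, MT2A and HIST1H3D. MT1E, 6.76 kb upstream of MT1M, was at 0, 0.217 and 0 in the controls and 424, 384 and 429 in the shSETD2 libraries (log2 fold change 8.59, SE 0.09, limma adjusted p = 1.17e-08). S100A6, 76.9 kb from S100A16, was at 0, 0.457 and 0.213 and at 375, 343 and 384 (8.25, SE 0.14, limma adjusted p = 4.73e-08). MT2A, next to AC026461.3, was between 7.09 and 7.72 in the controls and between 595 and 671 in the shSETD2 libraries (6.23, SE 0.06, limma adjusted p = 6.23e-09). No control value of these genes came near a value with shSETD2. MT1E, S100A6 and CD44 averaged 0.5 or more, and so were tested, only through the shSETD2 libraries. CD44, the hyaluronan receptor that holds AL133330.1, differed by 6.59 (SE 0.04, limma adjusted p = 2.53e-09), and the histone gene HIST1H3D (1 of 2 rows with this name), 54.4 kb from HIST1H2BH, by 5.49 (SE 0.19, limma adjusted p = 8.53e-07). The other HIST1H3D row overlaps it on the same strand and differed by 1.30 (SE 0.45, limma adjusted p = 0.0333). Reads could be divided between these rows, which was not tested.

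The lower neighbours differed less. DNM1, which encodes dynamin 1 and starts 42.6 kb from LCN2, was at 8.06, 8.48 and 8.26 in the controls and 1.55, 1.48 and 1.07 in the shSETD2 libraries (log2 fold change -1.97, SE 0.09, limma adjusted p = 2.58e-06). ZBED8 (-1.50), near MIR3142HG, MTA1 (-1.43), a subunit of the NuRD complex near CRIP1, and PEF1 (-1.30), near TINAGL1, were also lower, with limma adjusted p between 8.15e-07 and 1.05e-05. These genes stood within 100 kb of members that were at 10 or more in each shSETD2 library.

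Some further neighbours were chosen after their values were seen. AREG, like EREG a ligand of the EGF receptor, was at 6.10, 6.03 and 5.94 in the shSETD2 libraries and at most 0.0935 in the controls, and TM4SF18, next to TM4SF1, was at 9.52, 10.7 and 8.98 and listed at 0 in the controls. In the histone clusters both directions stood side by side. HIST1H2AJ, 0.304 kb from HIST1H2BM, was between 52.6 and 61.4 in the controls and between 299.6 and 335 in the shSETD2 libraries. HIST1H3H, 4.98 kb from the same member, was between 125 and 132 in the controls and between 61.9 and 68.3 with shSETD2. HIST1H1E, a linker histone gene like HIST1H1B, was at 553 to 610 in the controls and 230 to 247 in the shSETD2 libraries.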

How the data were processed

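RNA-seq was measured in 6 libraries labelled H1650, 3 control and 3 shSETD2. Per the labels and the methods, the authors extracted total RNA, made stranded libraries, aligned reads to hg19 (Hisat2), estimated gene expression with Ballgown and deposited FPKM per gene and library. Tool versions, annotation, RNA selection and the criterion for listing a gene are not given in the sources used here. Reads behind an FPKM are unknown, so no counting error is given, and precision rests on 3 libraries a group. A second deposited table, with the authors' fold changes, p-values and q-values, was not used.

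Genes whose FPKM averaged 0.5 or more were tested on log2(FPKM + 1) with limma 3.58.1 in R 4.3.3 (lmFit, eBayes with intensity trend, Benjamini-Hochberg adjustment over 14068 genes, threshold 0.05). Fold changes on that scale understate those of low genes. The fit was tested on simulated data. Members and lists of genes were chosen with earlier results of these data known, the lists with a supplementary table of the study in view.

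Members were named under their list or role, and some genes that this rule or the rules below cover are not reported here. Values per library were given for up to 4 members of each list with the highest mean and for the 10 highest, with up to 5 genes nearest each limit and up to 5 higher and 5 lower neighbours with the largest change that passed. Starts are the 5' ends of listed genes. GC content, the CpG ratio and motifs were read from GRCh37 in the 250 bases before each start, and printed promoters and the microRNA are from RefSeq (GRCh38.p14). Overlaps with other genes came from the GENCODE annotation of GRCh37, in which all 62 members were found. Only 20 of them had the same start and end there as in the deposited data. Windows, distances and clusters rest on the deposited starts. Figures were made with Python 3.11.15 and matplotlib 3.10.9. Alternatives covered the limits of the rule, the pseudocount, the filter, scaling, the intensity trend, a replicate block, window sizes and each library left out.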

Additional observations from a re-analysis of the deposited data

How the results depend on the processing

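The 62 members were in every set made with another scaling, and those sets held 64 to 82 genes. Leaving out a library only loosens the rule, so all 62 members stay in those sets by construction. A limit of 5 in the shSETD2 libraries gave 112 genes, a limit of 20 gave 33, and 0 in every control library gave 26. Leaving out each library in turn gave 62 to 68 genes, and their share of the summed FPKM was 1.46% to 1.89%, highest without control replicate 2, which lets in CXCL1, CD44 and MT1E (3 of 6 added genes).

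When only genes averaging 5 FPKM or more were tested, 2401 genes were called higher in place of 3774, and 34 neighbours in place of 68, since fewer genes are tested. A window of 50 kb gave 34 higher and 28 lower neighbours, and a window of 500 kb gave 192 and 231. With a limit of 5 in the shSETD2 libraries, 41 of the 112 genes that met the rule started within 1 Mb of another. With a limit of 20, 11 of 33 did. The share of neighbours called higher stayed above that of all genes under each setting, with the smallest gap at that higher filter (42.5% against 33.9%). After median ratio scaling, which moved the overall median log2 fold change from -0.29 to 0.00, 58.0% of neighbours were higher, against 38.2% of all genes. The 9 named neighbours kept their direction and call in all 133 values refitted. Leaving out neighbours of histone members, chosen after seeing the data, left 54 higher and 36 lower.

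Control and shSETD2 libraries with the same number did not deviate together (correlations of -0.02, 0.02 and -0.01). Whether libraries with the same number were handled together cannot be told from this. With the replicate number as a block, 3733 genes were called higher and 70 neighbours. FPKM gives no read number, which limits what can be said of values near 0.1.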
